A study of Homo sapiens with 6 samples.

Results

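The transcripts of 45 interferon response and signalling genes were compared between RUNX1 R320* and RUNX1 wild-type (WT) K562 cells by RNA-seq. The 45 genes were taken by name: 8 carry the signal of type I interferons into the nucleus (2 receptor chains, 2 receptor kinases and 4 transcription factors), and 37 are genes that interferons are known to induce. K562 is an established human leukaemia line with erythroid features, and RUNX1 is a transcription factor of blood cell development whose R320* form ends at a premature stop codon. There were 3 libraries of R320* cells and 3 of WT cells, all grown in the same medium with no interferon or other agent named. How the R320* change was made, whether the R320* cells are 1 clone and whether the replicates are separate cultures were not given in the sources used here, and p-values therefore measure the spread between these libraries only. All 45 genes were among the 28395 genes of the normalized count table, and 44 of them were found by name among the 60131 genes of a second table in RPKM (reads scaled by transcript length and library depth). No row of that table is named OAS1.

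Type I interferons bind a receptor made of IFNAR1 and IFNAR2, whose kinases TYK2 and JAK1 activate STAT2. With IRF9, STAT2 takes part in a complex that binds the interferon-stimulated response element, a pair of GAAA repeats in the promoters of interferon-stimulated genes. The induced proteins sense viral RNA, block viral entry, translation or release, and damp the signal again. K562 cells are known to have lost the type I interferon gene cluster.

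The response element is shown here because it is what many of the 45 genes share by sequence. It was searched for as GAAA followed, after any 2 bases, by another GAAA, on both strands in RefSeq promoter windows of GRCh38.p14, from 250 bases before to 50 bases after a start, and 35 of the 45 genes matched a window. Of these, 23 held it in at least 1 window (65.7%), against 4.38% of all 27305 genes with a window. The share was 13 of 19 among the genes lower in R320* cells, 1 of 1 among those higher, 2 of 6 among those tested and not called and 7 of 9 among those under the minimum for testing. The windows below run from 150 bases before to 10 bases after a start, 5′ to 3′ on the gene's strand, with the element in capitals on either strand. The first 5 belong to genes lower in R320* cells, IFITM3 and EIF2AK2 to genes that were not called, and ISG20 to a gene that was called higher.
IFIT1: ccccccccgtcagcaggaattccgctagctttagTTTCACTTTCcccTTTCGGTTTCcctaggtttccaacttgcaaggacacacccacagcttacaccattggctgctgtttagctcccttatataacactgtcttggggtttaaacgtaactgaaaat
OAS3: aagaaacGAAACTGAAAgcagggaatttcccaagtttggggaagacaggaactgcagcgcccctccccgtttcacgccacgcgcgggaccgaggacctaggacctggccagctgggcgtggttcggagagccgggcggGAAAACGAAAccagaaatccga
ISG15: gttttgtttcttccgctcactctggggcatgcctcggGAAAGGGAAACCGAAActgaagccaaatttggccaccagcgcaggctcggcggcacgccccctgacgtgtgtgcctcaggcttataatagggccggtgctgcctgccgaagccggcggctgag
DTX3L: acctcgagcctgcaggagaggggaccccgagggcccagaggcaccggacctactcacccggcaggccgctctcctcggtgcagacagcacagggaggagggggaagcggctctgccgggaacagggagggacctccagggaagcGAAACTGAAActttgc
IFITM1: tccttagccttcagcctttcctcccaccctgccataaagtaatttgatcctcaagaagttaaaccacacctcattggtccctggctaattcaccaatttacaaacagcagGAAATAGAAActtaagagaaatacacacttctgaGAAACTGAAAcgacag
IFITM3: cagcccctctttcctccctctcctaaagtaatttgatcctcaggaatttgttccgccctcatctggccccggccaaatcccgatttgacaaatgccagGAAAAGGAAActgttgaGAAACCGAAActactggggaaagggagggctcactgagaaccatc
EIF2AK2: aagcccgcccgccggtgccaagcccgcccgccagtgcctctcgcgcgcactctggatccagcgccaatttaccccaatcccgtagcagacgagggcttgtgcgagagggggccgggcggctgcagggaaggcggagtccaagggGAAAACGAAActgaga
ISG20: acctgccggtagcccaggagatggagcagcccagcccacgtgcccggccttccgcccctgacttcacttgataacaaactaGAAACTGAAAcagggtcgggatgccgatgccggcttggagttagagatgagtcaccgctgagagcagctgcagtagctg
These windows lie at chr10:89392473-89392632 (IFIT1, plus strand), chr12:112938324-112938483 (OAS3, plus), chr1:1013347-1013506 (ISG15, plus) and chr3:122564188-122564347 (DTX3L, plus). IFITM1 is at chr11:313890-314049 on the plus strand, IFITM3 at chr11:320851-321010 on the minus strand, EIF2AK2 at chr2:37156971-37157130 on the minus strand, and ISG20 at chr15:88638866-88639025 on the plus strand, at a start inside the annotated gene. IFIT1 carries the element as 2 copies in reverse orientation, at positions -116 and -103 from the start, and in ISG15 the 2 matches overlap and share a GAAA. A match was thus seen in genes of each class, those that fell, those that were not called and 1 that rose. The gamma-activated sequence, searched for as TTCCNGGAA, was in 3 of the 35 genes (BST2, PARP14 and IFI27), or 8.57%, against 1.44% of all genes with a window. The RUNX core TGTGGT was in 4 of the 35 (STAT2, IFIT3, IFITM1 and XAF1), or 11.4%, against 15.6% of all genes with a window. Matches of different motifs overlapped in 2 of the 48 windows of these genes. Across all tested genes with a window, 160 of the 415 with the response element were lower in R320* cells (38.6%) and 82 were higher (19.8%), against 28.3% lower and 26.8% higher among the 10603 without it. Without the interferon genes described here, 36.8% of the 399 remaining genes with the element were lower and 20.3% were higher. These shares describe the windows and were not tested.

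Reads counted on genes numbered 30705499, 30064538 and 31306435 in the R320* libraries, against 29058471, 30595857 and 30044565 in the WT libraries. Levels are normalized counts, in which 1 read stood for 0.953 to 1.05. Each log2 fold change is the R320* mean minus the WT mean of log2(normalized count + 1), with its standard error (SE). The limma fit covered the 14299 genes that reached 10 normalized counts in 3 or more libraries, and calls were made at a Benjamini-Hochberg adjusted p below 0.05 over all of them. In that fit 27.4% of all genes were called lower and 26.4% higher (53.7% in either direction), so that a call by itself is common in these libraries, and the median of all genes was 0.01. RUNX1 transcript, which does not show the stop codon, was 5026 to 5261 in R320* and 2908 to 2969 in WT libraries. K562 erythroid markers were present in all libraries (6 of 6, summing to 75449 to 83714 in R320* and 60192 to 62355 in WT). Of 22 markers of other blood, stromal and endothelial cells, 8 had no read in any library, and the sum of the 22 was 3346 to 3618 in R320* and 4358 to 4487 in WT libraries, most of it COL1A2 (2602 to 2805 in R320* and 3347 to 3431 in WT) and CD3D (419 to 515 in R320* and 723 to 731 in WT). The monocyte marker LYZ had 0.980, 0 and 0 normalized counts in R320* and 39.7, 54.8 and 49.5 in WT libraries, but in the RPKM table it averaged 4.61 ± 0.75 in R320* and 6.32 ± 0.661 in WT libraries (SD, n = 3 each) and was not called (limma adjusted p = 0.0616). Markers of plasmacytoid dendritic cells, a known source of interferon, did not exceed 5.95 in any library. The part of these markers in the results was not tested.

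Most interferon genes that K562 cells express were lower in R320* cells. Of the 45 genes, 31 could be tested, and 22 of these were lower, 2 were higher (ISG20 and NLRC5) and 7 were not called. At a log2 fold change of -1 or less, 16 were lower, against 6.97% of all genes tested, and at 1 or more the same 2 were higher, against 4.41%. The median log2 fold change of the 31 was -1.12, and their range was -5.39 to 2.41. In 25 of the 31 the libraries of the genotypes did not overlap, against 59.8% of all genes tested (30.2% with R320* below WT). IFIT1, IFIT2 and IFIT3 passed the minimum only through the WT libraries and NLRC5 only through the R320* libraries, so these 4 had to differ and their direction is fixed by the filter. The counts above include them. IFIT1, IFIT2 and IFIT3 are among the 22 lower and the 16 at -1 or less, and NLRC5 is among the 2 higher. All 4 are among the 25 without overlap, and their calls add no support to these counts. Summed over the 45 genes, the R320* libraries held 27490 to 28461 normalized counts and the WT libraries 37002 to 37412. In bulk libraries, fewer cells with a transcript and less transcript per cell cannot be told apart.

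By class, 24 of the 37 response genes were tested, of which 19 were lower, 2 higher and 3 not called, against 27.4% lower and 26.4% higher of all genes tested. Their median log2 fold change was -1.41. These counts include IFIT1, IFIT2, IFIT3 and NLRC5, whose direction the filter fixed. Of the 8 signalling genes 7 were tested, of which 3 were lower and 4 not called, beside the same background, with a median of -0.08. The other 14 genes (IRF7, DDX60, OAS1, OAS2, OASL, IFIT5, MX1, MX2, HERC5, TRIM22, IFI27, IFI44, IFI44L and XAF1) were not tested, and none of them exceeded 19.8 normalized counts in a library. In the normalized counts OASL, MX2, IFI44, IFI44L and XAF1 had no read in any library of either genotype. On the RPKM scale MX2 reached 0.335 in R320* replicate 2 and XAF1 reached 0.408 in R320* replicate 3. In a limma fit of the counts with no filter on low values, the other 9 of these 14 could be tested. DDX60 (adjusted p = 0.0024) and IFI27 (0.0131) were lower and 0 were higher. Of the 20059 genes in that fit, 20.1% were lower and 18.8% higher (38.9% in all).

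**Figure D1:**
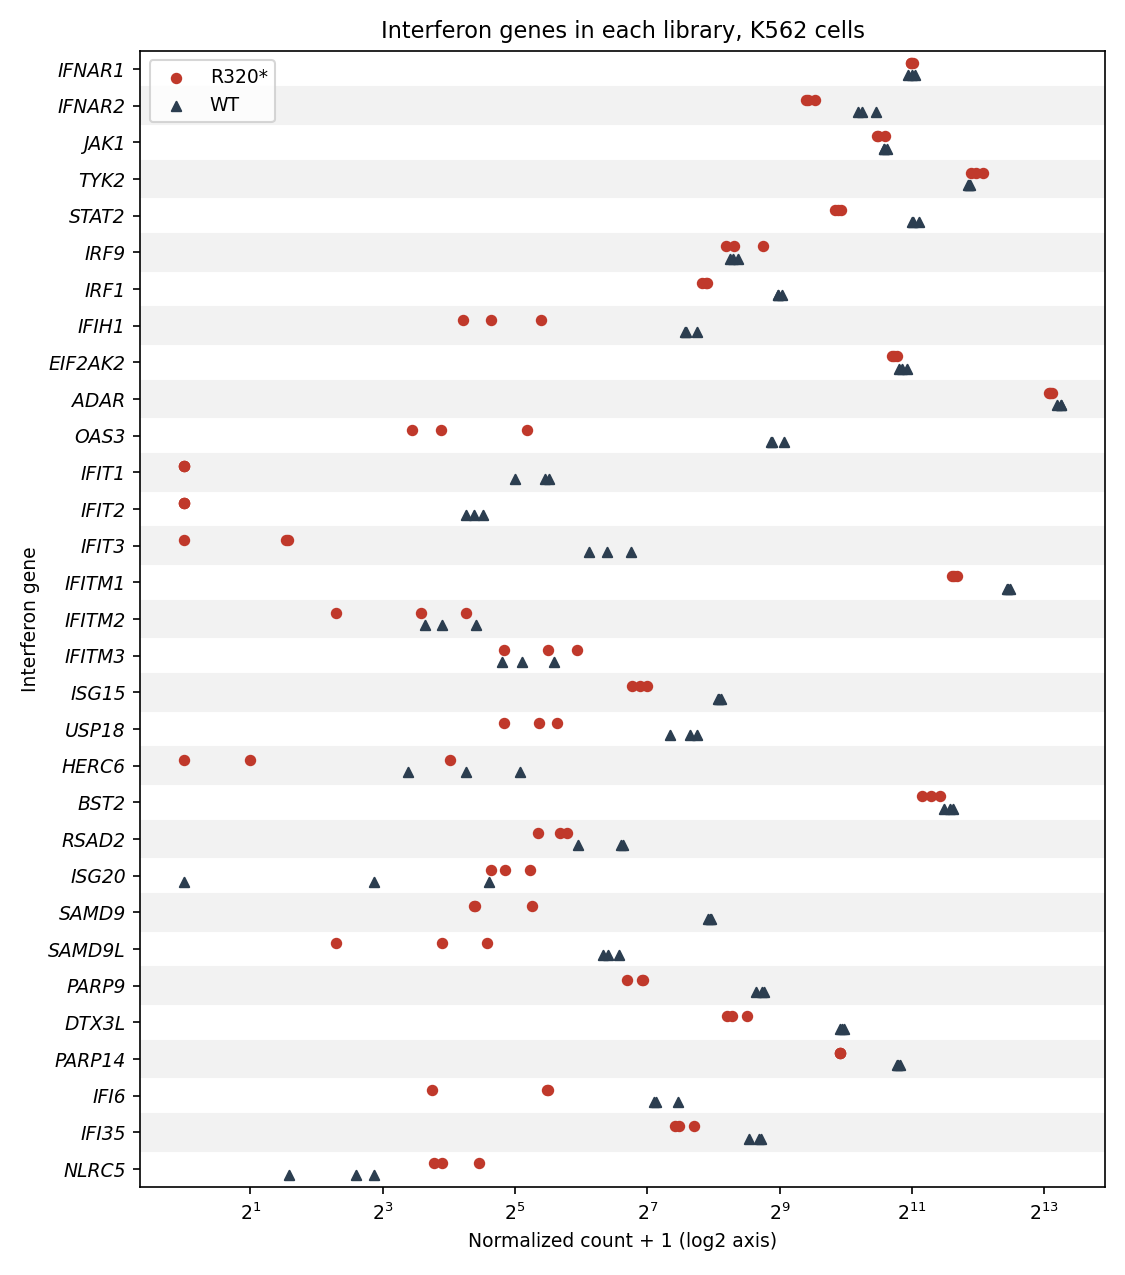
Normalized count + 1 on a log2 axis for the 31 tested interferon genes in each R320* library (red circles) and each WT library (dark triangles). For 22 genes such as OAS3, SAMD9 and DTX3L the R320* libraries sit left of the WT libraries, with an overlap in HERC6, while IFNAR1, JAK1 and IFITM3 overlap between the genotypes.

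Of the receptor chains, only IFNAR2 was lower. IFNAR1, the chain that binds TYK2, had 2036, 2021 and 2063 normalized counts in R320* libraries, against 1973, 2125 and 2051 in WT libraries. The libraries overlapped, and the log2 fold change was -0.01 (SE 0.05, adjusted p = 0.929). IFNAR2, the chain that binds JAK1 and STAT2, had 687, 673 and 741 in R320* libraries, against 1164, 1218 and 1403 in WT libraries. All R320* libraries were below all WT libraries, and the log2 fold change was -0.84 (SE 0.08, adjusted p = 1.01e-07). The pair lies on chromosome 21 in one cluster with IL10RB and IFNGR2, from IFNAR2 at 33229938 to 33265664 to IFNGR2 at 33402882 to 33437516 (GRCh38), between 1.35 and 1.52 Mb from RUNX1 (34787801 to 35049302). The span of IFNAR2 also overlaps the low transcript IL10RB-DT, at 16.2 to 19.8 in R320* and 19.9 to 40.4 in WT libraries. Within the cluster IL10RB, a chain of the interferon lambda receptor, was lower (log2 fold change -0.40, adjusted p = 0.00029) and IFNGR2, a chain of the interferon gamma receptor, was higher (0.56, adjusted p = 0.0103).

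The receptor kinases were not called. TYK2 had 3786, 3998 and 4302 normalized counts in R320* libraries, against 3709, 3696 and 3763 in WT libraries. Its lowest R320* library was just above its highest WT library, and the log2 fold change of 0.11 (SE 0.05) had an adjusted p of 0.0542. TYK2 was called higher under several alternatives. Its limma adjusted p was 0.0173 with upper-quartile scaling, 0.0455 with trimmed-mean scaling and 0.0101 without R320* replicate 1. It was 0.0464 with at least 50 counts in at least 3 libraries and 0.0331 with the replicate number as a block. JAK1 had 1540.3, 1428 and 1424 in R320* libraries, against 1526, 1524 and 1579 in WT libraries. These overlapped, with a log2 fold change of -0.08 (SE 0.05, adjusted p = 0.256). The span of JAK1 overlaps RAVER2, which was lower in R320* cells (-1.49, adjusted p = 1.76e-07), and whether reads were assigned by strand is not given in the sources used here.

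Of the transcription factors, STAT2 and IRF1 were lower and IRF9 was not called. STAT2, the subunit known for its part in type I interferon signalling, had 917, 943 and 971 normalized counts in R320* libraries, against 2202, 2047 and 2073 in WT libraries. The libraries were far apart, and STAT2 was 2.23-fold lower (log2 fold change -1.16, SE 0.06, adjusted p = 4.08e-11). IRF9, its DNA-binding partner, had 318, 289.7 and 429.8 in R320* libraries, against 331, 313 and 302 in WT libraries. R320* replicate 3 was the highest of the 6 and the others overlapped (0.11, SE 0.13, adjusted p = 0.507). IRF1, an activator induced by both interferon types, had 235, 238 and 227 in R320* libraries, against 523, 504 and 505 in WT libraries. Its libraries did not overlap, and it was 2.18-fold lower (-1.13, SE 0.10, adjusted p = 7.75e-08). IRF7, which amplifies the response, was under the minimum for testing, at 5.88, 10.9 and 0 in R320* libraries and 2.09, 1.99 and 4.04 in WT libraries. On the RPKM scale IRF7 averaged 3.83 ± 0.874 in R320* and 2.91 ± 0.887 in WT libraries (SD, n = 3 each), with a log2 difference of 0.40 that was not called (adjusted p = 0.292 from limma).

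Among the genes that sense or bind double-stranded RNA, IFIH1 stood out by the size of its change. IFIH1, which encodes the cytoplasmic RNA sensor MDA5, had 17.6, 23.8 and 41.0 normalized counts in R320* libraries, against 215, 189 and 191 in WT libraries. Every R320* library was below every WT library, and IFIH1 was 7.42-fold lower (log2 fold change -2.89, SE 0.27, adjusted p = 1.57e-07). DDX60, a helicase linked to RNA sensing, had no read in R320* libraries, and 8.37, 1.99 and 14.2 normalized counts in WT libraries, which was under the minimum for testing. EIF2AK2 encodes the kinase PKR, which halts translation, and had 1664 to 1755 in R320* and 1782 to 1936 in WT libraries. Its libraries did not overlap, but the log2 fold change of -0.12 (SE 0.05) was not called, at an adjusted p of 0.0573, and its span overlaps GPATCH11 (-0.16, adjusted p = 0.0396). EIF2AK2 was called without R320* replicate 1 (adjusted p = 0.0486) and without WT replicate 3 (adjusted p = 0.0417). With the replicate number as a block it was called too (limma adjusted p = 0.0476). ADAR, which edits double-stranded RNA, was 8607 to 8887 in R320* and 9317 to 9751 in WT libraries, lower by a small margin (-0.14, SE 0.03, adjusted p = 0.00355), and it was not called in the RPKM table (adjusted p = 0.173).

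The oligoadenylate synthases make a second messenger of antiviral defence, and OAS3 was the one member of the family with more than a few reads. It had 13.7, 9.92 and 35.3 normalized counts in R320* libraries, against 474, 533 and 467 in WT libraries. The highest R320* library was far below the lowest WT library, and the log2 fold change was -4.77 (SE 0.32, adjusted p = 2.68e-09). OAS1 reached at most 4.04 and OAS2 at most 2.02 in any library.

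The IFIT genes, which encode proteins that bind viral RNA lacking host cap marks, lie together on chromosome 10 between 89302046 (IFIT2) and 89420997 (IFIT5). In the normalized counts IFIT1 had no read in the 3 R320* libraries, against 42.9, 30.9 and 44.5 in WT libraries. IFIT2 also had none in R320* libraries, against 21.97, 19.9 and 18.2 in WT libraries. Measured against 3 reads in 1 library, IFIT1 was at least 13.2-fold lower and IFIT2 at least 6.73-fold lower in normalized counts. On the RPKM scale IFIT1 was above 0 in every R320* library. It averaged 0.0778 ± 0.0202 there, against 0.398 ± 0.0921 in WT libraries (SD, n = 3 each), a smaller fold than that bound. Why the measures differ was not tested. Both genes were called in counts (limma adjusted p = 1.86e-06 for IFIT1 and 5.92e-05 for IFIT2). The minimum for testing fixed their direction, so these calls are no support of their own. IFIT3 had 1.96, 0 and 1.91 in R320* libraries, against 82.6, 107 and 68.8 in WT libraries. The R320* libraries thus held at most 2 reads each, and the log2 fold change was -5.39 (SE 0.52, adjusted p = 2.33e-07). Its size depends on the pseudocount, being -3.85 with a pseudocount of 5 and -5.89 with 0.5, and the call held with both. The minimum for testing fixed the direction of IFIT3 as well. IFIT5 had no read in R320* libraries and 6.28, 0 and 2.02 in WT libraries. The spans of all 4 genes overlap that of LIPA, which itself had no read in R320* libraries and 23.01, 3.99 and 12.1 in WT libraries.

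IFITM1, which blocks the fusion of enveloped viruses with the cell, was the most abundant of the genes per length and was lower in R320* cells. It had 3279.6, 3111 and 3171 normalized counts in R320* libraries, against 5568, 5716 and 5618 in WT libraries. These did not overlap, and IFITM1 was 1.77-fold lower (log2 fold change -0.82, SE 0.04, adjusted p = 3.7e-11). IFITM2 was 3.92 to 18.1 in R320* and 11.5 to 20.2 in WT libraries and IFITM3 was 27.6 to 60.5 in R320* and 26.9 to 47.1 in WT libraries, and neither was called (adjusted p = 0.371 for IFITM2 and 0.544 for IFITM3). The IFITM genes are related neighbours on chromosome 11, and the authors' counting may split reads between similar ones. On the RPKM scale the log2 difference of IFITM1 was -0.85. In the normalized counts MX1, a GTPase that traps viral nucleocapsids, had no read except 2.02 in WT replicate 3. On the RPKM scale it reached 0.424 in R320* replicate 1 and 0.648 in WT replicate 3.

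The ISG15 system links the ubiquitin-like protein ISG15 to other proteins and removes it again. ISG15 had 126, 118 and 109 normalized counts in R320* libraries, against 269, 277 and 269 in WT libraries. Its libraries did not overlap, and it was 2.30-fold lower (log2 fold change -1.20, SE 0.14, adjusted p = 2.05e-06). USP18, which removes ISG15 and also shuts down the receptor at IFNAR2, had 27.5, 48.6 and 40.0 in R320* libraries, against 215, 162 and 198 in WT libraries. It was 4.95-fold lower with no overlap (-2.31, SE 0.24, adjusted p = 4.13e-07), and reads from its near-identical copies may be split. The conjugating enzyme UBE2L6, not one of the 45 genes, had 297, 289.7 and 268 in R320* libraries, against 1589.9, 1729 and 1597 in WT libraries. UBE2L6 was 5.74-fold lower (-2.52, SE 0.08, adjusted p = 1.46e-13), and the activating enzyme UBA7 was lower too (-1.25, SE 0.47, adjusted p = 0.0354), its libraries overlapping. HERC5, the ligase of the human system, reached at most 1.99 in any library. Its relative HERC6 had 0, 0.992 and 15.2 in R320* libraries, against 9.41, 32.9 and 18.2 in WT libraries. These overlapped, and the call (-2.57, SE 0.86, adjusted p = 0.0191) was lost without R320* replicate 1 (adjusted p = 0.0735), R320* replicate 2 (0.0715), WT replicate 2 (0.0989) or WT replicate 3 (0.0571). The log2 fold change of HERC6 was -1.73 without R320* replicate 1, -3.75 without R320* replicate 3 and -1.46 with a pseudocount of 5.

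Of 5 other restriction factors tested, 4 were lower and ISG20 was higher, against 27.4% lower and 26.4% higher of all genes tested. SAMD9 and SAMD9L, neighbouring genes on chromosome 7 whose products restrict poxviruses, were both lower. SAMD9 had 37.3, 19.8 and 20.01 normalized counts in R320* libraries, against 248, 240.3 and 247 in WT libraries, and SAMD9L had 3.92, 13.9 and 22.9 in R320* libraries, against 94.1, 79.8 and 83.9 in WT libraries. The highest R320* library lay far below the lowest WT library for both, and SAMD9 was 9.61-fold lower (log2 fold change -3.26, SE 0.25, adjusted p = 1.19e-08) and SAMD9L 7.20-fold lower (-2.85, SE 0.46, adjusted p = 5.79e-05, and -2.20 without R320* replicate 1). BST2, or tetherin, which holds budding virus at the cell surface, was abundant and 1.21-fold lower, at 2277 to 2735 in R320* and 2866 to 3163 in WT libraries (-0.28, SE 0.06, adjusted p = 0.000992). RSAD2, or viperin, which makes a chain-terminating nucleotide, had 39.7 to 53.9 in R320* and 60.8 to 98.1 in WT libraries (-0.79, SE 0.26, adjusted p = 0.0163). The RSAD2 call was lost without R320* replicate 2 (adjusted p = 0.0616), WT replicate 1 (0.0735) or WT replicate 3 (0.0768), and in the RPKM table (0.744). Its span overlaps CMPK2, a nucleotide kinase induced along with it, which had 330.4, 328 and 397 in R320* libraries, against 692, 645 and 575 in WT libraries, with no overlap (-0.86, SE 0.10, adjusted p = 3e-06).

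ISG20, an exonuclease of single-stranded RNA, went the other way at a low level. It had 36.3, 27.8 and 23.8 normalized counts in R320* libraries, against 6.28, 0 and 23.3 in WT libraries. The lowest R320* library was within a read of the highest WT library, and the log2 fold change was 2.41 (SE 0.81, adjusted p = 0.0197). The call was lost without R320* replicate 1 (adjusted p = 0.0535) or R320* replicate 2 (0.0589), and without WT replicate 2, when the log2 fold change was 1.17 (0.0762), and in the RPKM table (0.168). Without WT replicate 3 it was 3.47, and with a pseudocount of 5 it was 1.54. TRIM22, a ubiquitin ligase with antiviral activity, was not tested, at 1.91 to 19.8 in R320* and 1.99 to 8.37 in WT libraries. On the RPKM scale TRIM22 averaged 3.05 ± 0.331 in R320* and 4.03 ± 0.449 in WT libraries (SD, n = 3 each) and was not called (limma adjusted p = 0.088).

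PARP9 and DTX3L, which act together as a ubiquitin ligase on chromatin, and the related ADP-ribosyltransferase PARP14 lie side by side on chromosome 3, and all were lower. PARP9 had 102, 120.1 and 121 normalized counts in R320* libraries, against 426, 433 and 400.4 in WT libraries. DTX3L had 362, 309 and 294 in R320* libraries, against 960.2, 1000.0 and 985 in WT libraries. PARP14 had 959.9, 962 and 966 in R320* libraries, against 1753, 1813 and 1771 in WT libraries. None of the 3 overlapped between genotypes. PARP9 was 3.66-fold lower (log2 fold change -1.87, SE 0.13, adjusted p = 4.52e-09), DTX3L 3.06-fold (-1.61, SE 0.09, adjusted p = 2.67e-10) and PARP14 1.85-fold (-0.88, SE 0.05, adjusted p = 7.84e-10). PARP9 and DTX3L are transcribed away from each other with overlapping first parts (PARP9 from 122527924 to 122564784, DTX3L from 122564338 to 122575203), and a promoter window of each shares 137 bases with the other, which include the element printed above for DTX3L.

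The remaining response genes were IFI6, which limits flavivirus replication, IFI35, IFI27 and the immune regulator NLRC5. IFI6 had 44.1, 43.7 and 12.4 normalized counts in R320* libraries, against 136, 139 and 176 in WT libraries. It was 5.01-fold lower with no overlap (log2 fold change -2.32, SE 0.37, adjusted p = 5.39e-05, and -1.74 without R320* replicate 3). IFI35 had 208, 177 and 169.6 in R320* libraries, against 420.5, 372 and 409.5 in WT libraries. Its libraries did not overlap either, and it was 2.17-fold lower (-1.12, SE 0.12, adjusted p = 1.04e-06). IFI27 was under the minimum for testing in counts (0 to 3.92 in R320* and 4.18 to 12.0 in WT libraries), and in RPKM it was lower (log2 difference -2.22, limma adjusted p = 0.0403). NLRC5, which activates MHC class I genes, had 12.7, 13.9 and 21.0 in R320* libraries, against 6.28, 1.99 and 5.06 in WT libraries. It was called higher (1.70, SE 0.57, adjusted p = 0.0188), a call lost without R320* replicate 3 (adjusted p = 0.0779) or WT replicate 2 (0.0566). The minimum for testing fixed its direction, so the call is no support of its own. The RPKM table did not show the rise, with 0.209 ± 0.214 in R320* and 0.192 ± 0.158 in WT libraries (SD, n = 3 each).

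Levels between genes can be compared only per length, on the RPKM scale. The highest was IFITM1 with 229 ± 10.7 RPKM in R320* and 413 ± 9.16 in WT libraries (SD, n = 3 each), followed by BST2 with 87.9 ± 8.62 in R320* and 106 ± 6.20 in WT. TYK2 (81.5 ± 4.20 in R320* and 77.3 ± 9.55 in WT), ADAR (49.0 ± 4.43 in R320* and 56.9 ± 7.31 in WT) and IFNAR1 (43.7 ± 2.96 in R320* and 37.4 ± 5.87 in WT) came next. In R320* libraries BST2 (80.0 to 97.1) and TYK2 (78.2 to 86.3) overlapped, so their order is not clear there. ADAR (46.4 to 54.1) and IFNAR1 (40.3 to 45.6) were close in R320* libraries but did not overlap. The other RPKM means were 26.8 or less in both genotypes. Genes with the largest fold changes were thus at the low end of the scale, such as OAS3 with 0.488 ± 0.0860 RPKM in R320* and 5.65 ± 1.08 in WT libraries and IFIT3 with 0.0796 ± 0.0450 in R320* and 1.19 ± 0.254 in WT libraries.

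The second table of the same libraries gave 17 of 29 tested interferon genes lower and 0 higher, against 16.8% lower and 15.1% higher (31.9% in all) among its 17769 tested genes. Of 26 genes tested in both tables, 24 had the same sign. Of 19 called in counts and tested in RPKM, 16 were called in the same direction, and the other 3 were ADAR, RSAD2 and ISG20. IFIT3, SAMD9 and IFIH1 reached 0.5 RPKM in WT libraries only, so the minimum for testing fixed their direction on this scale. They are among the 17 lower and the 16 called in the same direction, and their calls add no support to these counts. OAS3 was lower by a log2 difference of -4.77 in counts and -3.28 in RPKM. The log2(RPKM + 0.1) scale draws low values together, but the measures of OAS3 also differed before that step. Its means were 19.6 in R320* and 491 in WT libraries in counts, and 0.488 in R320* and 5.65 in WT libraries in RPKM. Why they differ was not tested. For genes at moderate levels the values were close, as for STAT2 (-1.16 in counts and -1.19 in RPKM) and IFITM1 (-0.82 in counts and -0.85 in RPKM). The tables come from the same RNA and are no independent replicate.

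**Figure D2:**
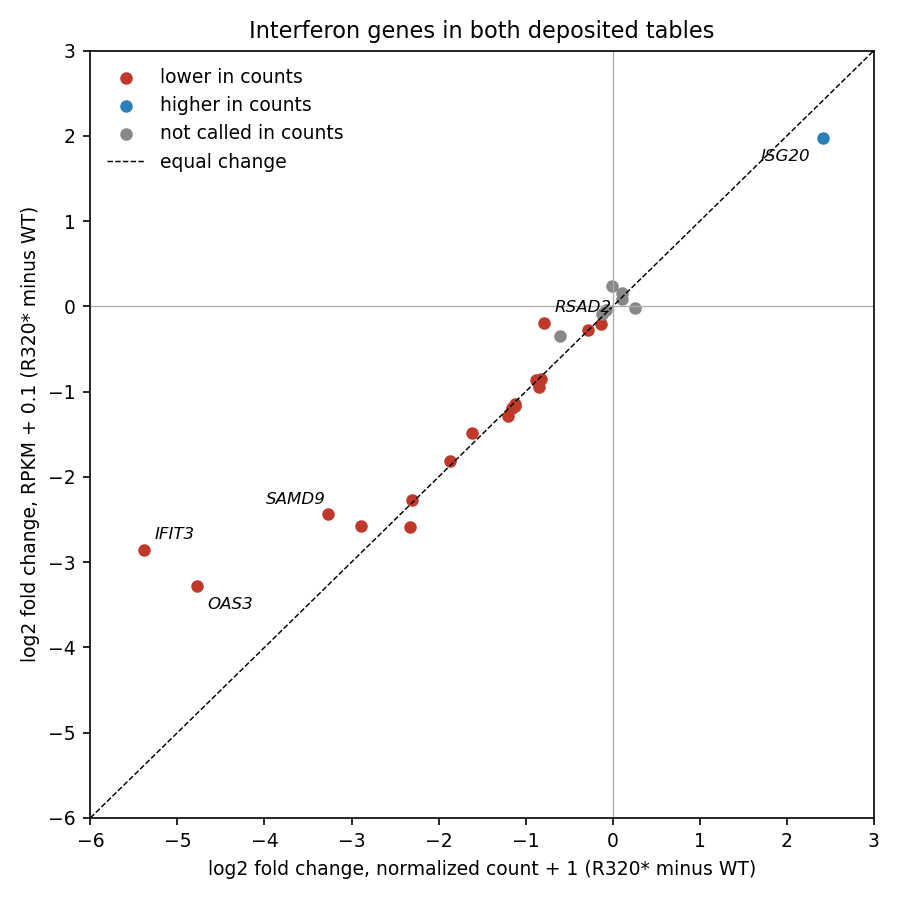
Log2 fold change (R320* minus WT) of the 26 interferon genes tested in both tables, from normalized counts (x axis) and from RPKM (y axis), coloured by the call in counts, with a dashed line of equal change. The points farthest above the line are IFIT3 (-5.39 in counts and -2.86 in RPKM), OAS3 (-4.77 and -3.28), SAMD9 (-3.26 and -2.44) and RSAD2 (-0.79 and -0.19).

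Chromosome neighbourhood was described because earlier results of these data had named lowered segments of chromosomes 5 and 12. Each gene was set beside the median log2 fold change of up to 50 nearest tested genes outside the 45, 25 on each side. Around STAT2 (12:56341597 to 56360107) the median of the neighbours was -0.70, and 43 of 50 were lower. Around OAS3 (12:112938474 to 112973251) it was -0.52, with 40 of 50 lower. Around IRF1 (5:132481609 to 132490773) it was -0.43, with 36 of 50 lower. These 3 genes thus lie among lowered neighbours. For the other 28 tested genes the neighbours' median was between -0.11 and 0.19. Of these 28, 19 were lower and 2 higher, against 27.4% lower and 26.4% higher of all genes tested. The median of the 28 was -0.86. ADAR, which was called lower at -0.14, was close to its neighbours' median of -0.11. IFIT1, IFIT2, IFIT3 and NLRC5, whose direction the filter fixed, are among these 28. The median difference between a tested gene and its neighbours was -0.91. The lower genes lie on 13 chromosomes.

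**Figure D3:**
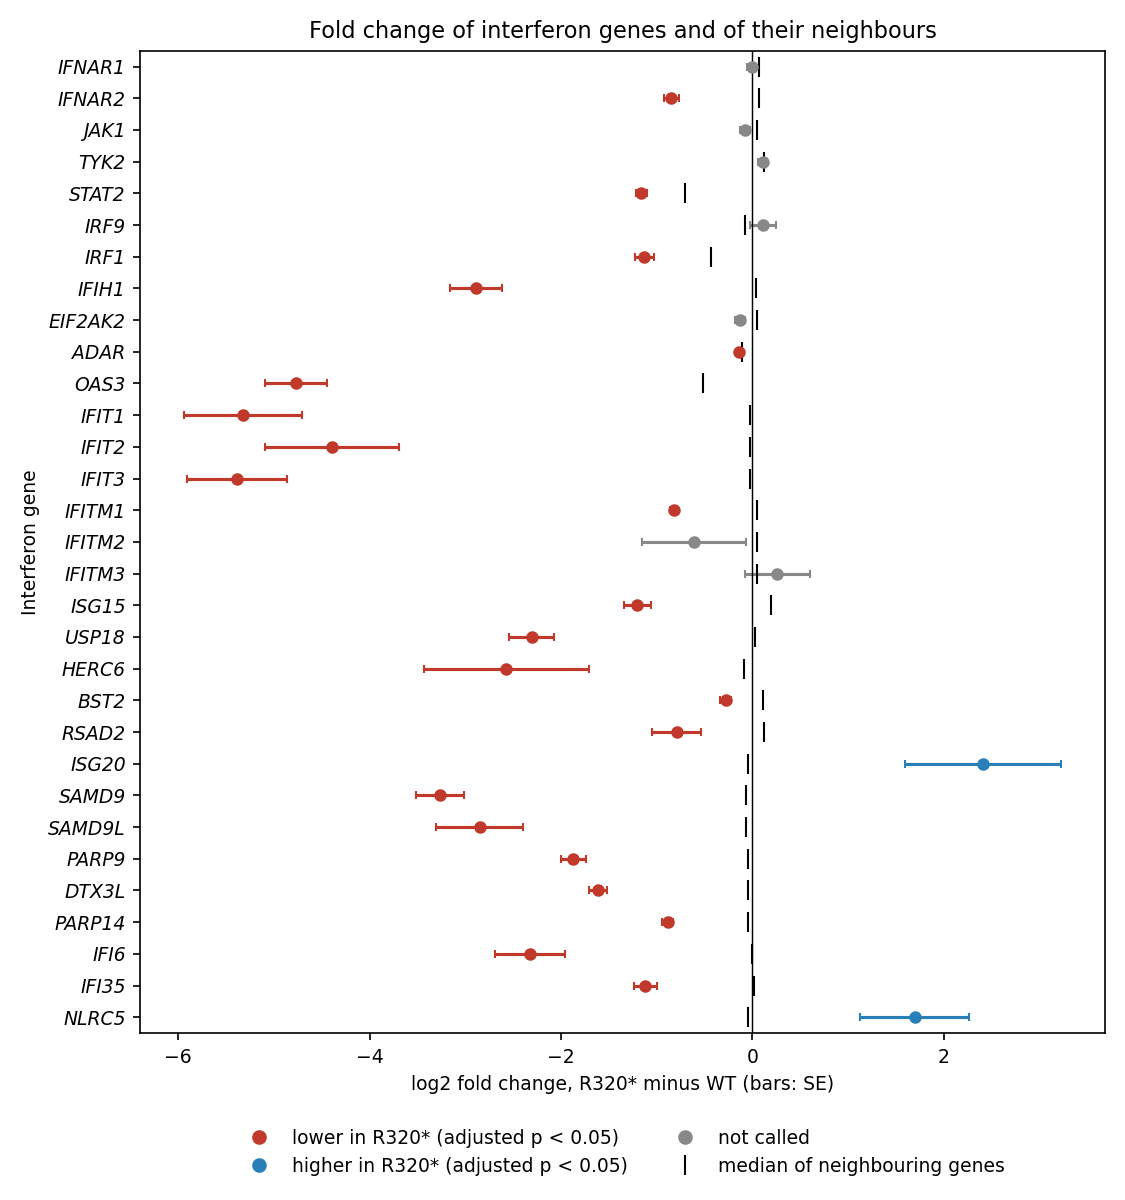
Log2 fold change (R320* minus WT, with SE) of each tested interferon gene, red where lower, blue where higher and grey where not called, and the median log2 fold change of its neighbouring genes (black tick). Ticks lie near 0 except for STAT2, OAS3 and IRF1.

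The rest of the pathway was followed in 103 further genes on 8 lists, of which 58 could be tested, 36 were lower, 10 higher and 12 not called, beside 27.4% lower and 26.4% higher of all genes tested. The median of the 58 was -0.48. Of 21 interferon genes themselves, 20 had no read in any library, and the exception, IFNK, had at most 3.81 normalized counts. Of 4 other receptor and kinase genes tested, 2 were lower, IFNGR1 (log2 fold change -0.49, adjusted p = 5.62e-06) and IL10RB, and 2 were higher, IFNGR2 and the kinase JAK2 (0.36, adjusted p = 5.75e-06). Of 5 other transcription factors tested, 4 were lower, IRF2 (-1.12, adjusted p = 4.72e-08), IRF3 (-0.49, adjusted p = 8.27e-07), STAT3 (-0.28, adjusted p = 3.69e-06) and BATF2 (-2.54, adjusted p = 1.1e-06).

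Sensors and adaptors that lead to interferon production were lower in 7 of 10 tested, where 27.4% of all genes were, and higher in 1, TRAF3 (0.24, adjusted p = 0.00172), chosen after its values were seen. STING1, the adaptor of the cytosolic DNA sensor cGAS, had 313, 459 and 439 normalized counts in R320* libraries, against 2184, 2251 and 2219 in WT libraries. It was 5.56-fold lower (log2 fold change -2.47, SE 0.11, adjusted p = 1.09e-11). The kinase TBK1 (-0.58, adjusted p = 3.86e-06) and the DNA sensors AIM2 (-1.87, adjusted p = 1.15e-05) and IFI16 (-1.97, adjusted p = 4.81e-05) were lower as well. Of 6 negative regulators 3 were lower, SOCS1 (-0.45, adjusted p = 0.00341), PIAS1 (-0.23, adjusted p = 0.017) and PTPN1 (-0.14, adjusted p = 0.0178), and 2 were higher, SOCS3 and PTPN2 (0.16, adjusted p = 0.0425). Of all genes tested, 53.7% were called in either direction, and nothing about the list is read from these counts. SOCS3, an inhibitor of cytokine receptor kinases, had 1072, 1166 and 1170.2 normalized counts in R320* libraries, against 355, 359.9 and 403 in WT libraries. The libraries did not overlap, and it was 3.05-fold higher (1.61, SE 0.08, adjusted p = 7.22e-11).

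Other antiviral effectors were lower in 15 of 24 tested and higher in 5, against 27.4% lower and 26.4% higher of all genes tested. LGALS3BP, a secreted glycoprotein, had 17.6, 18.9 and 11.4 normalized counts in R320* libraries, against 415, 513 and 462 in WT libraries. It was 27.8-fold lower with no overlap (log2 fold change -4.80, SE 0.22, adjusted p = 2.73e-11). TRIM25, the ubiquitin ligase of the RIG-I pathway (-0.98, adjusted p = 4.33e-11), and HELZ2, a helicase coactivator (-1.28, adjusted p = 3.97e-10), were lower too. The 5 higher ones, named after their values were seen, were TRIM5 (0.56), SAMHD1 (0.36), PNPT1 (0.27), ZNFX1 (0.27) and LAP3 (0.13). Of the genes for antigen presentation and interferon gamma targets, 7 of 22 could be tested in counts and 3 were lower, against 27.4% of all genes. GBP4, a guanylate-binding protein, had 14.7, 13.9 and 15.2 in R320* libraries, against 252, 252 and 215 in WT libraries (-3.94, SE 0.23, adjusted p = 4.53e-10). B2M, the light chain of MHC class I (-0.33, adjusted p = 0.00039), and the proteasome subunit PSMB10 (-0.36, adjusted p = 0.000414) were lower by less.

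**Figure D4:**
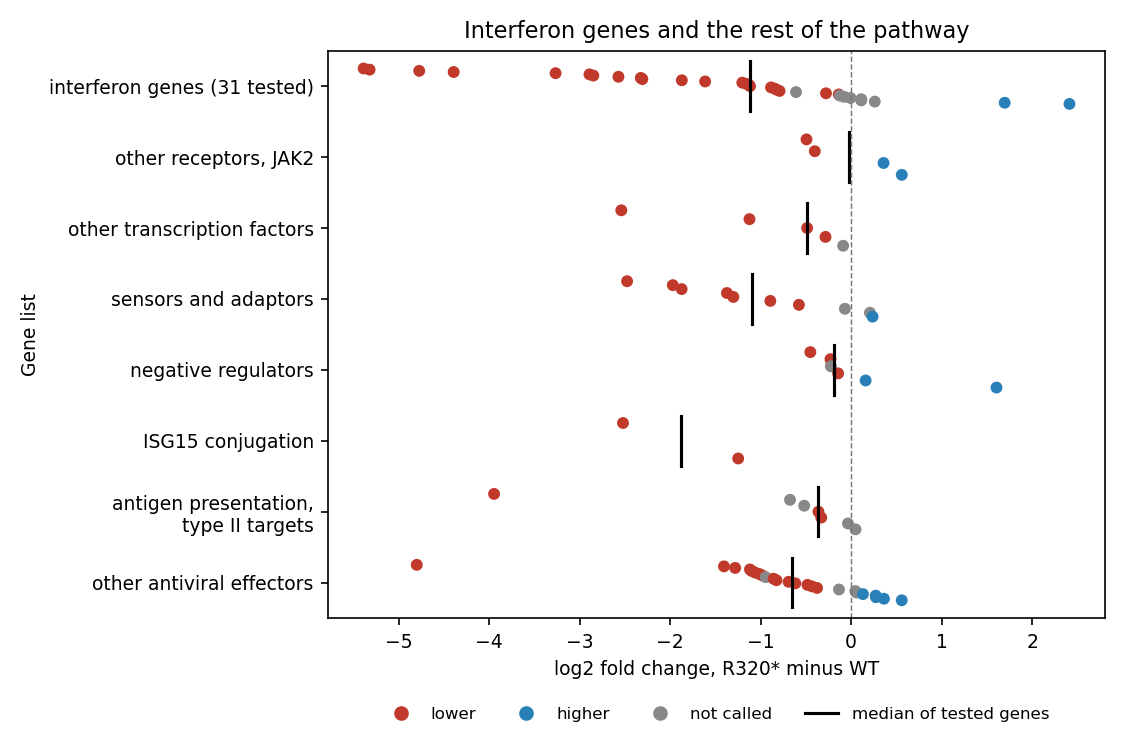
Log2 fold change (R320* minus WT) of each tested gene, as points by list, with a black bar at the median of each list. The top row holds the 31 tested of the 45 interferon genes, and the other lists of the pathway lie under it. Every median lies left of 0. It was -1.88 for ISG15 conjugation (2 genes), -1.12 for the interferon genes and -1.10 for sensors and adaptors. The others were -0.65 (antiviral effectors), -0.49 (transcription factors), -0.36 (antigen presentation), -0.18 (negative regulators) and -0.02 (other receptors, JAK2). SOCS3 at 1.61 is the point farthest to the right among the negative regulators.

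The MHC class I genes, which interferons induce through IRF1 and NLRC5, were seen in the RPKM table and were described after their values were seen. HLA-B had 1.80, 1.32 and 0.991 RPKM in R320* libraries, against 13.7, 15.0 and 18.4 in WT libraries. HLA-C had 4.27, 3.99 and 4.19 in R320* libraries, against 26.5, 25.7 and 26.5 in WT libraries. HLA-E, the ligand of an inhibitory receptor of natural killer cells, had 10.7, 10.5 and 10.2 in R320* libraries, against 29.2, 30.7 and 30.97 in WT libraries. No library of one genotype overlapped the other, and the log2 differences were -3.45 (HLA-B, adjusted p = 9.27e-05), -2.63 (HLA-C, adjusted p = 2.66e-06) and -1.52 (HLA-E, adjusted p = 9.79e-06) by limma. The peptide transporter TAP1 (-1.78, adjusted p = 0.000154) and the proteasome subunit PSMB9 (-3.21, adjusted p = 0.000546) were lower too. In the normalized count table these genes were at or near 0 in both genotypes. Of 101 protein-coding genes at chromosome 6 from 29000000 to 34000000 with at least 1 RPKM, 65 (64.4%) had under 10 normalized counts in every library, against 275 of 10771 elsewhere (2.55%), and why the tables differ there was not tested.

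**Figure D5:**
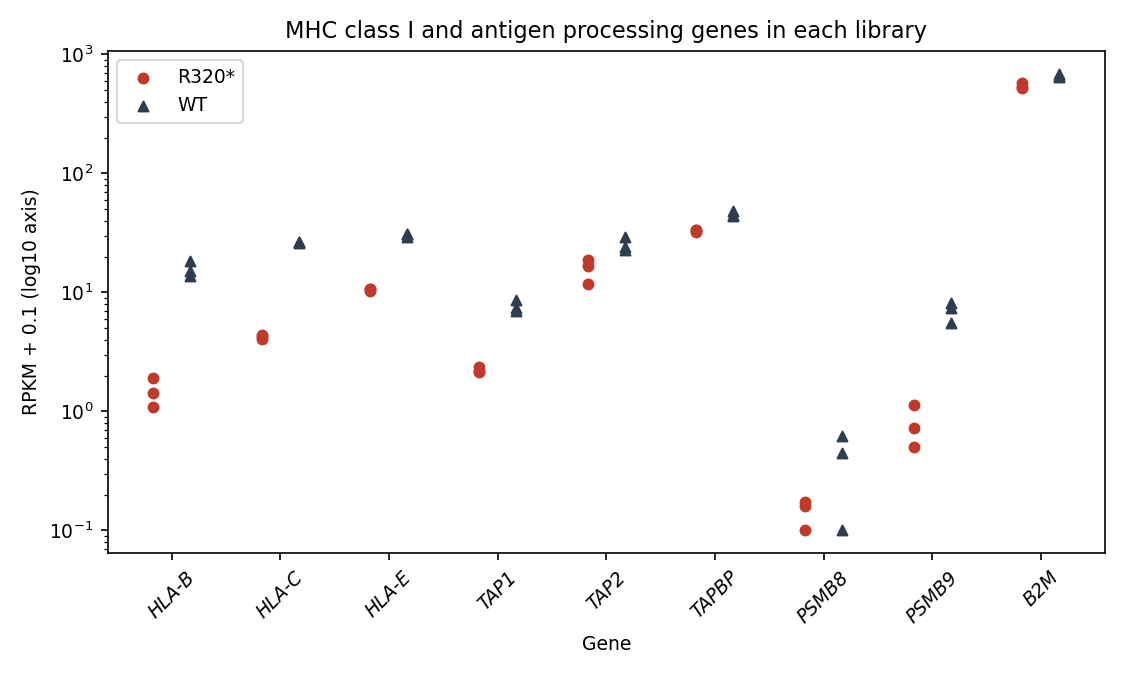
RPKM + 0.1 on a log10 axis for MHC class I and antigen processing genes in each R320* library (red circles) and each WT library (dark triangles). HLA-B, HLA-C, HLA-E, TAP1 and PSMB9 separate by genotype, B2M is high in both, and PSMB8 lies near the floor of the axis.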

How the data were processed

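RNA-seq of K562 cells was compared between 3 R320* and 3 WT libraries. Per the labels' protocols, RNA was isolated in TRIzol and sequenced from NEBNext Ultra II libraries. Salmon, HISAT2, featureCounts, DESeq2 and the hg38 build are named in the submitters' processing notes, and their versions and the use of strand were not given in the sources used here. The deposited normalized counts (a signal) are reads per gene that the authors scaled by 1 factor per library, since all values were whole multiples of 1 read (100% within 1e-06). The deposited RPKM values were named so by the authors, and their columns sum to 721735 to 786389, so a transcripts-per-million scale cannot be told apart.

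Normalized counts were taken as log2(value + 1) where a gene reached 10 in 3 or more libraries, and RPKM as log2(value + 0.1) where it reached 0.5 in 3 or more. Both were fitted with limma 3.58.1 in R 4.3.3 (empirical Bayes, intensity trend), with Benjamini-Hochberg adjustment over all genes tested. The method was tested on simulated data. Folds against a genotype without reads are bounds against 3 reads in 1 library, which cover counting error only. Symbols, positions and promoter windows came from RefSeq (GRCh38.p14). Summaries used Python 3.11.15, NumPy 2.4.6 and pandas 2.3.3, and figures matplotlib 3.10.9. The 45 genes, the pathway lists and the markers were chosen with earlier results of these data known. Values per library are given for genes called at a log2 fold change of 1 or more in size, for receptors, kinases and transcription factors and for genes called higher, and up to 4 called genes with the smallest adjusted p were named per pathway list. A few genes of these lists are left unreported. Alternatives were other pseudocounts, filters, scalings and variance models, a replicate block, each library left out, and the RPKM table.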

Additional observations from a re-analysis of the deposited data

How the results depend on the processing

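Of the 31 tested interferon genes, 23 kept their call, or stayed uncalled, under every alternative in which they could be tested. The rest are named here or beside their values. Among those of the 23 that stayed uncalled, the log2 fold change took both signs for IFNAR1 (-0.03 to 0.24), IRF9 (-0.05 to 0.23) and IFITM3 (-0.03 to 0.55). The number lower was 17 to 24 and the number higher 0 to 3 over all alternatives. Of the counts of genes higher, 0 were called in the RPKM table, with a pseudocount of 1 there, or with no filter there, and 1 with at least 50 counts in at least 3 libraries or with no intensity trend. The median log2 fold change of the tested genes was -0.86 in RPKM, -0.85 with a pseudocount of 1, -0.53 with no filter there, -0.99 with no filter on counts, and -0.91 relative to neighbours. NLRC5 turned to -0.0017 in RPKM with no filter, where it is close to 0; the cause was not tested. Leaving out each library in turn gave 6931 to 7314 genes called in all, 20 to 22 interferon genes lower, 0 to 2 higher and medians of -1.14 to -1.06. HERC6 and ISG20 were not called without the intensity trend (adjusted p = 0.117 and 0.147), and BST2 was not called in RPKM with no filter (0.0692). With the replicate number as a block, 7854 genes were called, 23 interferon genes were lower and 3 higher. Libraries with the same number did not deviate together (correlations of 0.03, -0.003 and -0.003). This cannot tell whether libraries with the same number were prepared together, which is not given in the sources used here. Scalings moved the median of all genes to at most 0.04. The RPKM fit with no filter and a trimmed-mean scaling were added after the data were seen. The planned TMM scaling, quasi-likelihood and Wald tests on whole reads were not run, because the values were treated as a normalized signal. At a few reads per library, 9 of the 14 genes under the minimum could be tested in counts only with no filter, which called 2 of them lower. The pseudocount sets the fitted size of genes near 0 in a genotype: with 5 in place of 1, IFIT1 was at -3.14, IFIT2 at -2.32 and IFIT3 at -3.85.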
